A study of Homo sapiens with 4 samples.

Results

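The sites described here are those that PRRC2B and its RNA-binding fragment left on coding mRNAs in stretches annotated as 3′ untranslated region (3′UTR). They were taken from 2 lists of PAR-CLIP binding sites by their annotation: the gene had to be protein-coding, and the region label had to name the 3′UTR, alone or together with the coding sequence (CDS), and not the 5′UTR. Records of the same position and strand were merged into 1 site. This gave 435 of 1465 distinct sites: 271 of 894 for the full-length protein and 164 of 571 for the fragment. All samples were HEK293T cells, an established human embryonic kidney line, in which a FLAG-tagged protein was overexpressed: full-length PRRC2B (FL), or the truncated fragment P2 (RBD), which carries its arginine- and glycine-rich RNA-binding part. Both constructs were expressed on top of the cells' own PRRC2B, and both were precipitated through the tag. RNA carried 4-thiouridine (4sU) for 16 h, was crosslinked to protein at 312 nm, and was cut with RNase T1 to fragments of 19 to 35 nt. Each construct had 2 biological replicates (4 samples), whose reads the authors merged into 1 list per construct. No value below therefore has a replicate error, no test between samples could be made, and the number of reads behind each list is unknown.

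In PAR-CLIP, an RNA-binding protein is crosslinked to the 4sU residues it touches, and the crosslinked residue is later read as C, which marks the contact. The 3′UTR follows the stop codon of an mRNA and is where many microRNAs and RNA-binding proteins act on the stability, localisation and translation of the message. PRRC2B belongs to a family of large proline-rich proteins that associate with translation initiation factors, whose best known place of action is the 5′ end of the mRNA. Sites in 3′UTRs thus lie at the other end of the message, although a translated mRNA can bring both ends together.

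The 3 sets of sequences that follow show what the sites looked like at their middle. Each is the middle 30 nt of an FL site on the strand of the RNA, in hg38 coordinates, written with T for U, and the capitals mark its longest unbroken run of C and T. The first set holds the 6 tallest sites, by mean log2 height in both lists, that were found with both proteins and lay wholly in the 3′UTR with no small RNA gene under the site. They show that the tallest sites were mixed: a long pyrimidine run in EIF4H and TTLL12, and G-rich RNA in USP22 and PPP2R1A.
EIF4H (chr7:74196769-74196798, plus strand): cagaaCTCTCTCTCCTTCCTTCCacctgtc
USP22 (chr17:21002830-21002859, minus strand): accacacggacggggaggCTCCTggagctg
PPP2R1A (chr19:52226183-52226212, plus strand): cggggttggacaggacagtgaCCTTgggag
ARF1 (chr1:228098795-228098824, plus strand): gggtccgtcgTCCCCaacactcgtgctcgc
OAZ1/SPPL2B (chr19:2273164-2273193, plus strand): ggtaggaaccgtagactcgctcaTCTCgcc
TTLL12 (chr22:43167536-43167565, minus strand): aggcgggTTTCTCTTCCggggtctctgctc
The second set was chosen after its sequences were seen, to show the pyrimidine runs that were common among shared 3′UTR sites of lower height. RAB7A is a GTPase of late endosomes, KDELR2 returns proteins to the endoplasmic reticulum, PTBP3 is a paralog of the polypyrimidine tract-binding protein PTBP1, and APLP2 is a membrane protein related to the amyloid precursor.
RAB7A (chr3:128813481-128813510, plus strand): caacacaaTTCCCCTCTCCTCTTCCaaaca
DAGLB/KDELR2 (chr7:6461577-6461606, minus strand): gtctccctcattttaCTCTTCCCTCCTTgt
PTBP3 (chr9:112222317-112222346, minus strand): tttctcatactctgTCCCTCTCTTTTTCat
APLP2 (chr11:130144282-130144311, plus strand): caggCTCCTCCTCTCTggactttctccaaa
The third set holds the 6 tallest shared sites, by the same measure, whose label named both CDS and 3′UTR but which lay wholly in the coding sequence of the reference transcript. They too were mixed: purines prevailed in URI1, HSP90B1 and TMED5, while RPLP0 and ACTG1 held long pyrimidine runs.
RPL15 (chr3:23919214-23919243, plus strand): tgtggggctctgagagtcctgaaTTCTTac
RPLP0 (chr12:120198650-120198679, minus strand): aacatgctcaacaTCTCCCCCTTCTCCTTT
URI1 (chr19:30009230-30009259, plus strand): tgatgatgacgacgacgacgacaacaTTga
HSP90B1 (chr12:103947340-103947369, plus strand): agagaCagcagaagacacaacagaagacac
ACTG1 (chr17:81511272-81511301, minus strand): ccgcaTCCTCCTCTTCTCTggagaagagct
TMED5 (chr1:93156352-93156381, minus strand): agaacaggcacaagaacaagaagaTTggaa

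The first question was whether the label matched the place on the transcript. Each site was laid on the reference transcript of its gene, the MANE Select or else the Ensembl canonical isoform of GENCODE release 44. Throughout, a site is called wholly in the 3′UTR when it touched the reference 3′UTR and not the coding sequence. It is called wholly in the coding sequence when it touched that and not the 3′UTR. The rest of such a site could lie in an intron or outside the transcript. Sites labelled 3′UTR alone did lie there: 147 of 152 FL sites and 81 of 87 RBD sites were wholly within the reference 3′UTR, and the others lay outside the reference exons. Sites labelled both CDS and 3′UTR were mostly coding. Of the 119 FL sites with that label, 79 lay wholly in the reference coding sequence (66.4%, 95% Wilson interval 57.5 to 74.2), 30 crossed the stop codon and 5 lay in the 3′UTR. Of the 77 RBD sites, 53 lay wholly in the coding sequence (68.8%, interval 57.8 to 78.1) and 22 crossed the stop codon. Intervals here and below account only for counting, and sites on the same gene depend on each other.

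**Figure D1:**
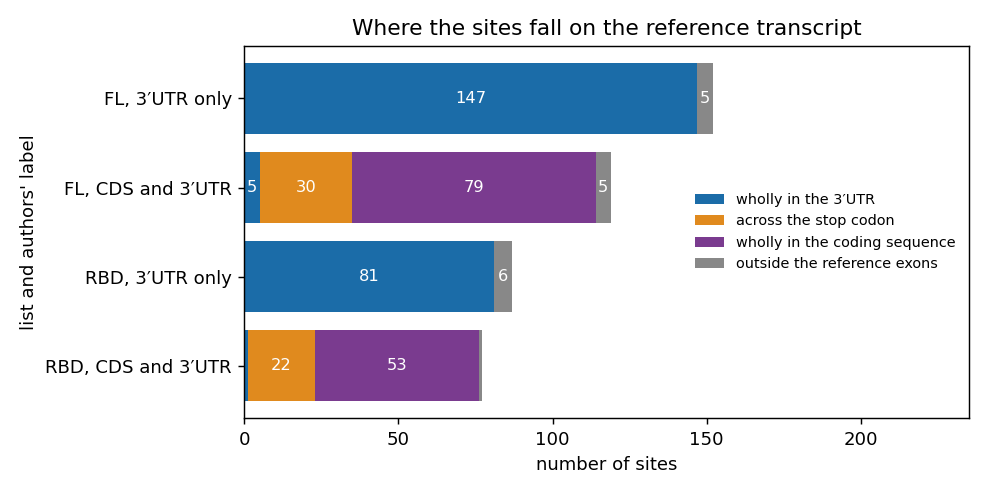
Number of FL and RBD sites by the authors' region label (rows) and by their place on the reference transcript (colours). The purple parts, 79 FL and 53 RBD sites, are sites labelled CDS and 3′UTR that lay wholly in the reference coding sequence, that is, touched it and not the reference 3′UTR.

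Most of the coding sites lay in the annotated 3′UTR of an isoform subject to nonsense-mediated decay (NMD), in which an early stop codon turns downstream coding sequence into 3′UTR. No other isoform gave them a 3′UTR in 59 of the 79 FL sites and 44 of the 53 RBD sites. Another coding isoform did so for 14 FL and 6 RBD sites, and none was found for 6 and 3. SMC1A, a cohesin subunit, had an FL site of height 13 and an RBD site of height 8 that lay 2945 and 2962 nt before the reference stop codon. The ribosomal protein mRNA RPLP0 had its site 414 nt before the stop codon in both lists, with heights of 14 and 17. An NMD isoform placed the site in a 3′UTR in both genes. The NMD label alone does not mark these sites, since 21 of the 261 FL sites labelled CDS alone also lay in the 3′UTR of an NMD isoform. Which isoforms the cells expressed was not measured here. The sites are therefore described by their place below: 152 FL and 82 RBD sites wholly in the reference 3′UTR, 30 and 22 across the stop codon, 79 and 53 wholly in the coding sequence, and 10 and 7 outside the reference exons.

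Within the 3′UTR, sites lay toward the stop codon rather than toward the end of the transcript. The median FL site had its middle 546.5 nt after the stop codon (quartiles 225.75 and 1124.75 nt, range 56 to 9948 nt), in 3′UTRs with a median length of 1851.5 nt. The first 50% of the 3′UTR held 108 of 152 FL sites (71.1%, interval 63.4 to 77.7) and 56 of 82 RBD sites (68.3%, interval 57.6 to 77.4). Only 1 FL site and 3 RBD sites fell in the last 10%. By absolute distance, the middle lay within 100 nt of the transcript end in 3 FL and 7 RBD sites. It lay within 100 nt of the stop codon in 13 and 7 of these sites. The site farthest from the stop codon was that of HIPK2, a stress-activated kinase, at 9948 nt (FL) and 9943 nt (RBD) of an 11357 nt 3′UTR. RBD sites had a median distance of 642 nt in 3′UTRs of 2448.5 nt. Both medians of length exceeded the 1059 nt of all 19061 MANE Select transcripts. A longer 3′UTR offers more room for a site, and the part of length in this was not tested. Shared and unshared FL sites had similar places, with 25 of 36 and 83 of 116 in the first 50%.

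**Figure D2:**
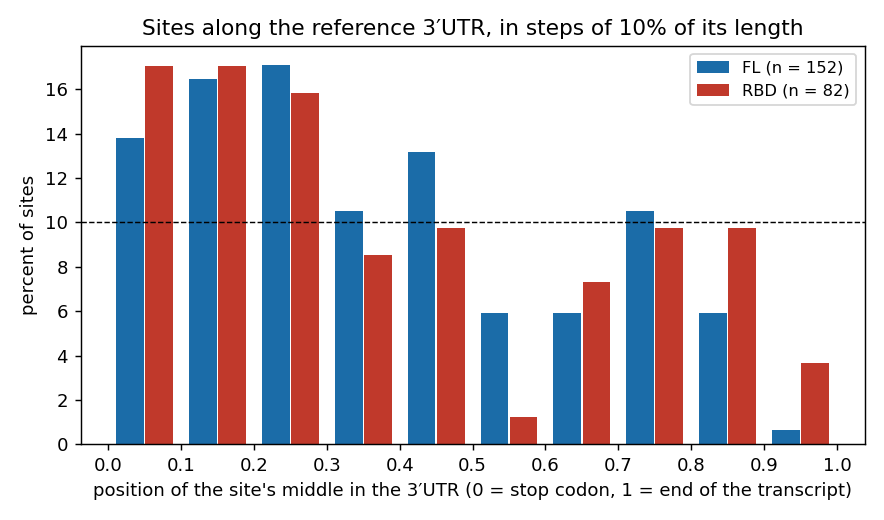
Percent of the 152 FL and 82 RBD sites wholly in the reference 3′UTR (y axis) whose middle fell in each 10% of the 3′UTR (x axis, from stop codon to transcript end). The dashed line marks 10%, an even spread. The first 30% held 47.4% of FL and 50.0% of RBD sites.

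A minority of the sites lay close to the stop codon. Sites labelled CDS alone are not counted here, and no expected share was computed. The middle lay within 100 nt of it, on either side, in 48 of 261 FL sites that could be placed (18.4%, interval 14.2 to 23.5) and in 32 of 157 RBD sites (20.4%, interval 14.8 to 27.4). Sites that crossed the stop codon included tall ones on ribosomal protein mRNAs. RPL18 had FL and RBD heights of 19 and 14, with the middle of the FL site 2 nt after the stop codon of a message whose 3′UTR is 41 nt long. RPL13A had heights of 16 and 15, with the middle of the FL site 42 nt after the stop codon. STMN1, which encodes the microtubule-destabilising protein stathmin, had heights of 14 and 10, with the middle 27 nt before the stop codon. SLC3A2, the heavy chain of several amino acid transporters, had heights of 10 and 6, with the middle 29 nt after the stop codon.

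The RNA at the middle of the 3′UTR sites was rich in C and poor in G. In the middle 41 nt of the 152 FL sites wholly in the 3′UTR, C made up 31.6% and G 18.7% of the bases, against 26.1% and 23.9% in equally wide windows around a point 100 nt upstream and 23.5% and 24.3% in those 100 nt downstream. T, at 29.2%, differed less from its flanks (26.4% and 27.7%). Together C and T reached 60.8% ± 13.3 (SD across sites, n = 152), against 52.5% ± 12.3 upstream and 51.2% ± 12.2 downstream. The 82 RBD sites showed the same pattern: C and T reached 65.0% ± 12.0 (n = 82), against 51.0% and 49.4% in the flanks, and G fell to 16.2%. Against the whole 3′UTR of the same transcript, C was higher in the middle of 121 of 152 FL sites, by a mean of 7.62 percentage points, and of 75 of 82 RBD sites, by 10.3 points. G was lower in 111 of the FL sites and 66 of the RBD sites. The pattern was not limited to 3′UTRs: in the 174 FL sites with a 5′UTR label, C was 33.6% in the middle against 30.3% and 31.7% in the flanks, and G was 24.5% against 33.1% and 31.8%.

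**Figure D3:**
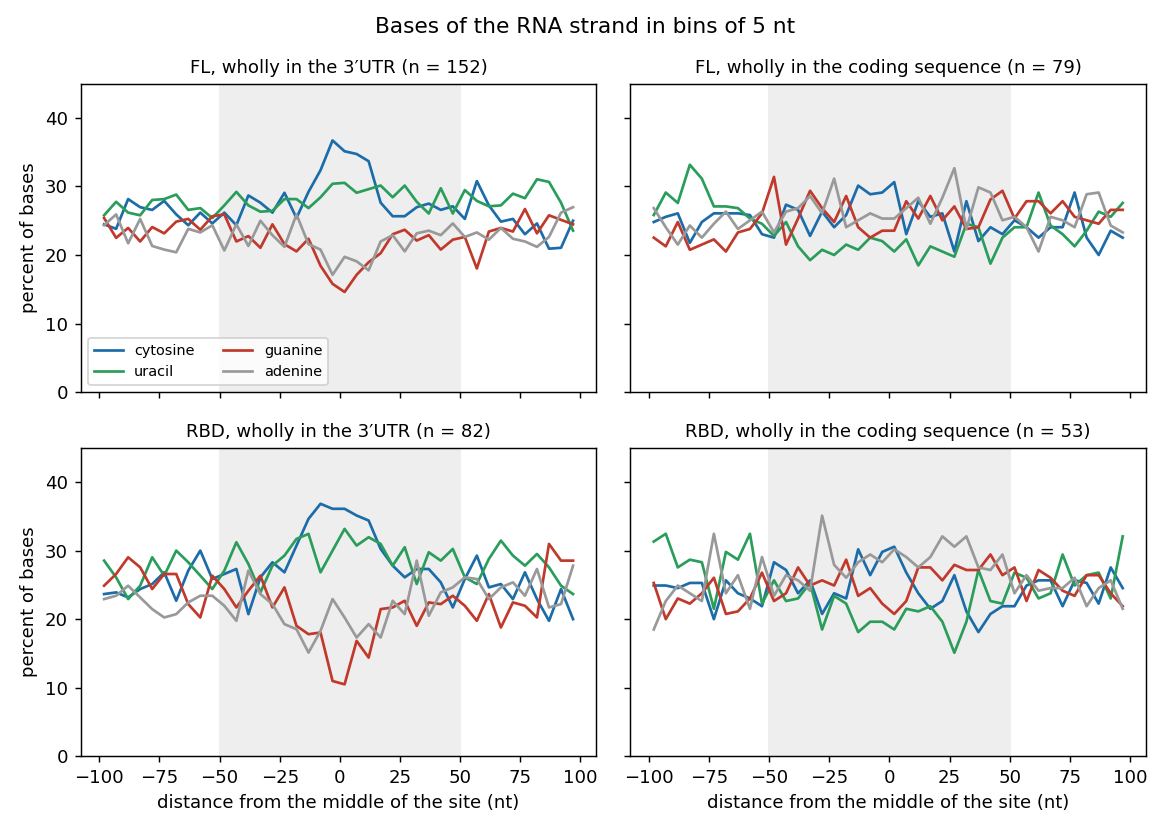
Share of each base (y axis, percent) in bins of 5 nt by distance from the middle of the site (x axis, nt), for FL (top) and RBD (bottom) sites wholly in the 3′UTR (left) or wholly in the coding sequence (right); the shaded band is the 100 nt site. In 3′UTR sites C peaked at 36.7% (FL) and 36.8% (RBD) and G dipped to 14.6% and 10.5% near the middle. In coding sites C also had its highest bin at the middle, at 30.6% in both lists, and G there was 23.5% (FL) and 20.8% (RBD).

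The pyrimidines stood in runs. A window was called pyrimidine-rich when some 15 nt in it held at least 12 C or T, and purine-rich likewise for G and A. Of the FL 3′UTR sites, 96 of 152 had a pyrimidine-rich middle (63.2%, interval 55.3 to 70.4), against 30.9% and 28.9% of the flanks, and only 15 had a purine-rich middle (9.87%, interval 6.07 to 15.6), against 21.1% and 23.7%. Of the RBD 3′UTR sites, 58 of 82 had a pyrimidine-rich middle (70.7%, interval 60.1 to 79.5) and 3 a purine-rich one. For scale, 30.7% of 9215 consecutive 41 nt windows over the 143 whole 3′UTRs with an FL site were pyrimidine-rich, as were 27.0% of 811093 such windows over all MANE Select 3′UTRs. Shared and unshared FL sites had pyrimidine-rich shares of 66.7% and 62.1%, with overlapping intervals of 50.3 to 79.8 and 53.0 to 70.4. Sites with a 5′UTR label had pyrimidine-rich middles in 51.7% of FL cases (flanks 31.0% and 29.3%) and 52.7% of RBD cases (flanks 24.7% and 25.8%).

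The motif CTCT (CUCU in RNA), searched on the RNA strand only, recurred most among the 12 motifs examined. It was found in the middle 41 nt of 103 of 152 FL 3′UTR sites (67.8%, interval 60.0 to 74.7), against 18.4% upstream, 19.7% downstream, 19.6% of windows over the same 3′UTRs and 17.9% over all MANE Select 3′UTRs. In the RBD list it was found in 55 of 82 (67.1%, interval 56.3 to 76.3), against 18.3% and 20.7% in the flanks. It can be seen in the sites of EIF4H, TTLL12, RAB7A, KDELR2, PTBP3 and APLP2 shown above. The overlapping motif TCTC was found in 79 FL and 45 RBD sites, and CTTC in 58 and 39. Purine motifs were scarce at the middle of these sites: AAGA was found in 9 FL sites and in none of the 82 RBD sites, which allows a share of up to 3.66%, and GAAG in 10 and 2. Motifs known from other regulators of 3′UTRs were about as rare in the middle of the FL sites as beside it. The AU-rich pentamer ATTTA stood in the middle of 8 of 152 FL sites, against 9 upstream and 11 downstream, the poly(A) signal AATAAA in 2, against 2 and 6, the Pumilio motif TGTANATA in 1, against 0 and 1, and CTACCTC, the match to the let-7 seed, in 4, against 2 and 0. Among the 82 RBD sites ATTTA stood in 5 middles, against 2 and 3, AATAAA in 2, against 0 and 2, TGTANATA in 1, against 0 and 0, and CTACCTC in 0 of all 3 windows. A match is a description of the sequence, not evidence of a bound factor.

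Sites labelled 3′UTR but lying in the coding sequence had fewer pyrimidine-rich and more purine-rich middles, with intervals that did not overlap those of the 3′UTR sites. Among the 79 FL sites of this kind, 23 had a pyrimidine-rich middle (29.1%, interval 20.3 to 39.9) and 29 a purine-rich one (36.7%, interval 26.9 to 47.7). In the flanks of these FL sites, 32.9% upstream and 19.0% downstream were pyrimidine-rich, and 22.8% and 24.1% purine-rich. The flanks of the 53 RBD sites in the coding sequence gave 47.2% and 28.3% pyrimidine-rich, and 20.8% and 17.0% purine-rich. The part of the general base composition of coding sequence was not tested. The 261 FL sites labelled CDS alone had 29.5% pyrimidine-rich and 35.6% purine-rich middles. In the 79 FL sites in the coding sequence, C and T made up 48.7% ± 16.2 (SD, n = 79) of the middle, C was 27.5% there against 22.8% and 22.4% in the flanks, G was 25.6% against 23.3% and 25.6%, and AAGA was found in 30 of them, against 10 upstream and 22 downstream. The 53 RBD sites in the coding sequence gave 14 pyrimidine-rich (26.4%, interval 16.4 to 39.6) and 20 purine-rich middles (37.7%, interval 25.9 to 51.2), against 42.3% and 28.6% of the 168 RBD sites labelled CDS alone. FL sites across the stop codon were intermediate, with 15 pyrimidine-rich (50.0%) and 8 purine-rich middles among 30. Their flanks were 33.3% and 56.7% pyrimidine-rich, so the middle did not exceed the downstream flank. Of 22 such RBD sites, 15 were pyrimidine-rich (68.2%, interval 47.3 to 83.6), close to the RBD 3′UTR sites, and 4 were purine-rich (18.2%). The flanks of these RBD sites were 31.8% and 54.5% pyrimidine-rich. RNase T1 cuts after G, and 4sU crosslinks where U stands; their part in the base composition was not tested. Flanks are genomic and can reach into introns for sites in coding exons.

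**Figure D4:**
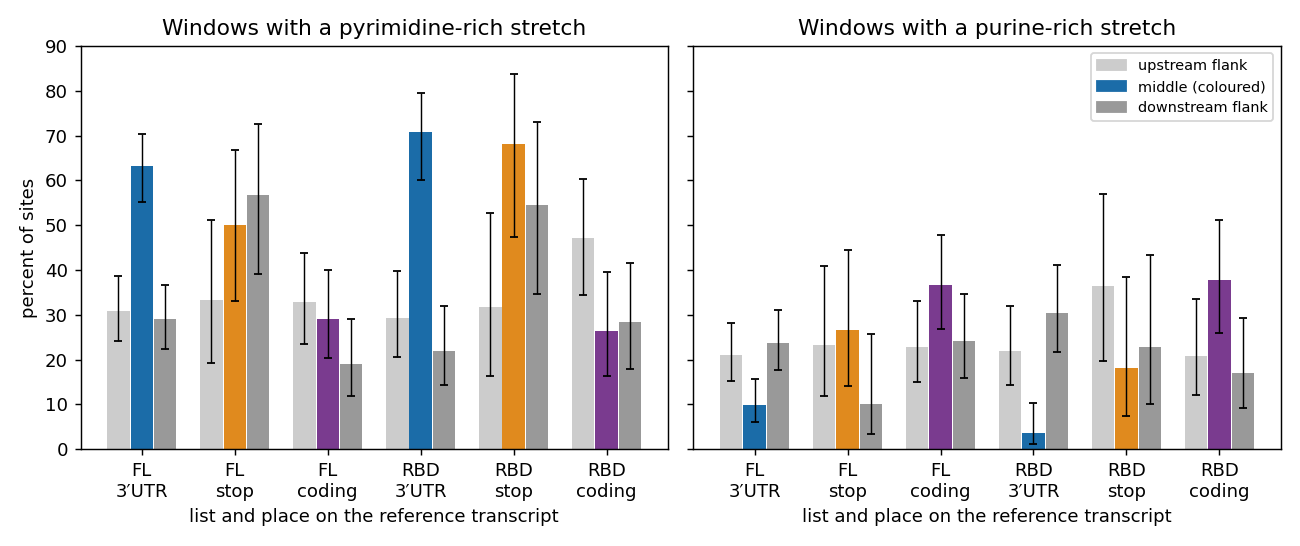
Percent of sites (y axis, with 95% Wilson intervals) with a pyrimidine-rich (left) or purine-rich (right) stretch in the middle 41 nt (coloured) and in flanking windows 100 nt upstream and downstream (grey), by list and place on the reference transcript. Pyrimidine-rich middles reached 63.2% (FL) and 70.7% (RBD) in 3′UTR sites and 29.1% and 26.4% in coding sites.

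The tallest 3′UTR sites were described by the same measures. Peak height is the number of overlapping deduplicated reads. Of the 16 FL sites wholly in the 3′UTR with a height of 10 or more, 7 had a pyrimidine-rich middle (43.8%, interval 23.1 to 66.8). The wide interval holds the 63.2% of all FL 3′UTR sites, of which these are a part, and 9 held CTCT. The middle of these 16 sites was not poor in G, with 26.4% against 26.2% upstream and 26.4% downstream. C was 30.8%, against 29.7% and 28.7%. C and T together made up 54.7% ± 13.1 (SD, n = 16), against 52.3% and 53.5%. The result depended on the window. In the middle 21 nt of the 16 sites, G was 21.1%, C 34.8%, and C and T together 61.9% ± 15.9 (SD). All 152 FL 3′UTR sites had 16.7%, 34.7% and 64.2% there. Of the 7 such RBD sites, 4 were pyrimidine-rich, and G made up 27.9% of their middle 21 nt. Sites on small RNA genes were kept in these sets: TMEM107 on a small nucleolar RNA gene in both, and CTC1 on a tRNA gene among the RBD sites. USP22, the deubiquitinase of the SAGA complex, had heights of 14 and 11 on RNA with 40.0% G in the stretch shown. PPP2R1A, the scaffold subunit of protein phosphatase PP2A, had heights of 14 and 9 with 46.7% G.

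The next comparison asked how far the 3′UTR sites of the full-length protein and of the fragment coincided. An FL site was called shared when it had an RBD site of any region on its strand that covered at least 1 of its nt. Of the FL 3′UTR-labelled sites, 78 of 271 were shared (28.8%, interval 23.7 to 34.4), against 35.3% of FL sites of all regions. Of the RBD sites, 75 of 164 were shared (45.7%, interval 38.3 to 53.4), against 56.0% of RBD sites of all regions. Intron sites raised the shares of all sites, with 58.2% (FL) and 75.2% (RBD) shared. Without them the shares were 30.9% of 748 FL sites and 51.3% of 458 RBD sites, both inside the intervals of the 3′UTR-labelled sites. By place, 36 of 152 FL sites wholly in the 3′UTR were shared (23.7%, interval 17.6 to 31.0), 12 of 30 across the stop codon and 27 of 79 in the coding sequence (34.2%, interval 24.7 to 45.2). The 261 FL sites labelled CDS alone had a share of 33.7%, and the 174 with a 5′UTR label one of 24.7%. In the RBD list the corresponding shares were 56.0% and 45.2%. Peak height moved with sharing. FL sites of height 5 to 6 were shared in 16 of 119 cases (13.4%), those of 7 to 9 in 31 of 92 (33.7%), and those of 10 or more in 30 of 41 (73.2%). RBD sites gave 27.1%, 64.0% and 84.6% in the same ranges. A height of 10 was reached by 41 of 271 FL 3′UTR-labelled sites (15.1%), against 19.5% of 5′UTR sites, 30.7% of sites labelled CDS alone, 45.9% of intron sites and 22.9% of all sites but introns. The median height was 6 in 3′UTR and 5′UTR sites alike. The part of height in the shared shares was not tested.

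Sharing was nearly all or none in position. The shared FL sites started a median of 4 nt from their RBD partner, 64 of 78 within 10 nt and 9 at the same base. Only 5 overlapped by under 50 nt: MCM7, a subunit of the replicative helicase, by 1 nt, CDKN2A by 18 nt, DNAJB6 by 26 nt, the site of ARF1 at its stop codon by 30 nt and ACTB by 36 nt. The unshared site closest to any site of the other list was that of STRN4 in the RBD list, 13749 nt away, followed by KLC2 and NPLOC4 in the FL list at 44575 and 44671 nt. The partner was also labelled 3′UTR in 75 of 78 cases. One exception was PPP2R1A, whose RBD partner, 1 nt away, carried a label with 5′UTR.

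Heights of the paired sites ran together. Across the 78 pairs, Spearman's rho was 0.641 and Pearson's r of log2 heights 0.71, and across the 36 pairs wholly in the 3′UTR they were 0.663 and 0.80. Without pairs on small RNA genes, they were 0.629 and 0.638 across the 74 pairs left. For the 33 of those wholly in the 3′UTR, they were 0.664 and 0.645. These are correlations across sites, which share the cell line and the abundance of each mRNA, and are given as a description. Heights were not scaled for the depth of each list, so their ratio has no zero point. The FL height was the larger in 39 pairs, the RBD height in 28, and 11 were equal. TMED5, a cargo receptor of the early secretory pathway, stood farthest on the RBD side, with heights of 8 and 17 at a coding site. HSP90B1, the HSP90 chaperone of the endoplasmic reticulum, had 12 and 19.

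**Figure D5:**
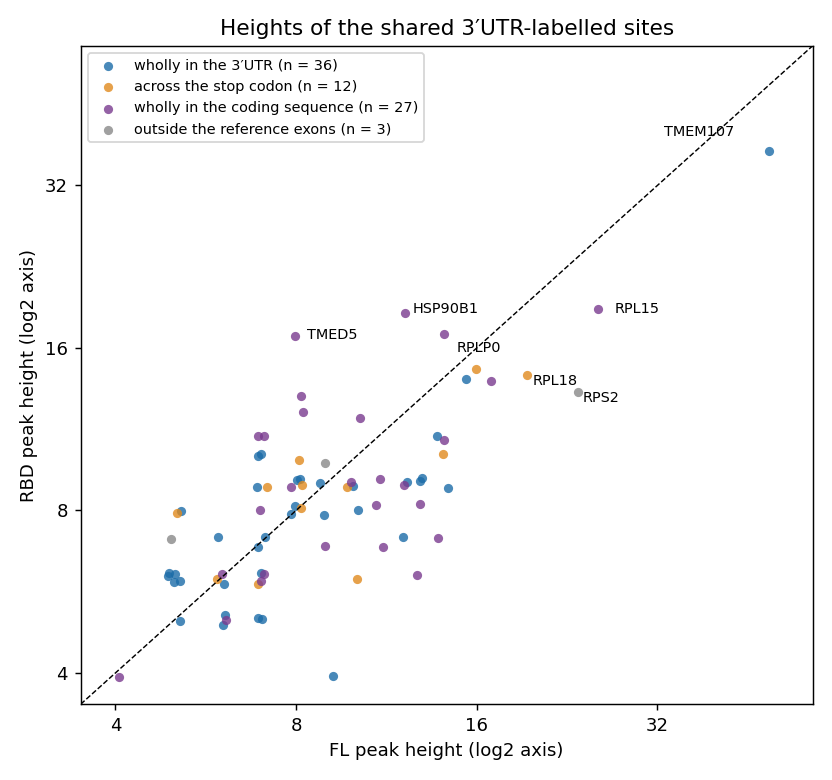
Peak height in the RBD list (y axis) against that in the FL list (x axis), both on log2 axes, for the 78 pairs of overlapping sites, coloured by place on the reference transcript; points are moved slightly so that equal values can be seen. The dashed line marks equal heights. TMEM107 stands alone at 49 and 38, and most pairs lie between 4 and 16 in both lists.

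The tallest sites belonged to a small set of genes. TMEM107, a protein of the ciliary transition zone, led both lists with heights of 49 and 38, but its site lay on SNORD118, the U8 small nucleolar RNA (snoRNA) gene within its annotated 3′UTR, which it overlapped by 94 nt (FL) and 99 nt (RBD). Ribosomal protein mRNAs followed. RPL15 had 26 and 19 at a coding site, RPS2 had 23 and 13 on a snoRNA gene, SNORA10, outside the reference exons, and RPL18 and RPL13A had the stop codon sites given above. Only 1 of the 6 FL sites on ribosomal protein mRNAs lay wholly in the 3′UTR, that of the paralog RPL7L1 with a height of 8. Their median height was 17.5, against 6 for all FL 3′UTR-labelled sites. Without small RNA genes, the tallest FL site wholly in the 3′UTR was that of EIF4H, a cofactor of the helicase eIF4A, with 15 and 14, at 1476 nt after the stop codon in the FL list. Its middle 25 nt had 3 exact copies in the genome. Other tall shared sites wholly in the 3′UTR were those of OAZ1, the antizyme that limits polyamine synthesis, with 13 and 9, TTLL12 with 12 and 9 and the nuclear lamin LMNB2 with 12 and 7. Of the 41 FL sites with a height of 10 or more, 11 were unshared, led by a site of 13 recorded under both FUT5 and NDUFA11 and by those of PTBP1, RAB1B and the lipid peroxidase GPX4, each of 11. Of 26 such RBD sites, 4 were unshared, on H1-10 with 15, ARHGDIA with 13, EIF4A1 with 12 and MLLT1 with 11.

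For scale in the gene groups that follow, 1.34% of 19902 annotated genes with a coding transcript had an FL site of this label and 0.844% an RBD site, expressed or not, since expression was not measured here. The shared counts of the groups stand beside 28.8% of all 271 FL sites of this label, a share that rose with height. In the groups other than histones the shares lay between 3.69% and 11.2% of genes for FL and between 1.34% and 11.1% for RBD. Histones had the lowest shares, 2.11% and 1.05% of 95 genes, near those of all genes. The part of mRNA abundance in these shares was not tested. Among mRNAs for translation factors, 8 of 74 genes had an FL site and 5 an RBD site. EIF1, which helps select the start codon, had an unshared FL site of height 10 at 315 nt after the stop codon. EIF3B, a subunit of eIF3, had heights of 8 and 9. EIF4G2, a relative of eIF4G, had FL sites of height 9 at 1508 and 2519 nt before the stop codon, both in coding sequence and both unshared. RACK1, a ribosome-bound scaffold, had 12 and 9 in coding sequence, and EEF1G, an elongation factor subunit, 8 and 13.

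Small GTPases had sites mostly in the 3′UTR itself, where 152 of all 271 FL sites lay. Of 79 small GTPase genes, 6 had FL sites, 8 sites in all, of which 7 lay wholly in the 3′UTR and 4 were shared. ARF1, which recruits coat proteins at the Golgi, had FL sites of 13 at 797 nt after the stop codon and of 10 across it, both shared with RBD sites of 9. RAB1B, a GTPase of transport between endoplasmic reticulum and Golgi, had FL sites of 11 and 10, neither shared. RAB7A had 8 in both lists at 74 nt after the stop codon, and RAB5B, of early endosomes, 7 and 5. Of 125 genes of secretory and endosomal trafficking, 14 had an FL site and 10 of these 14 sites lay wholly in the 3′UTR, while 6 genes had an RBD site, of which 2 lay wholly in the 3′UTR and 3 in the coding sequence. VAPB, which tethers the endoplasmic reticulum to other membranes, had 10 and 9, and SEC61A1, the channel subunit of the translocon, had an unshared FL site of 8.

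Splicing factors and other RNA-binding proteins had 9 FL sites on 9 of 113 genes, with a median height of 8. PTBP1 had an unshared FL site of 11 at 205 nt after the stop codon, and its paralog PTBP3 had a shared one of 5 and 6 at 1519 nt. KHDRBS1, the signalling adaptor and splicing regulator Sam68, had 9 in both lists at 148 nt. SNRNP70 and HNRNPUL1 had shared sites in coding sequence, with heights of 8 and 9 and of 7 and 8. Chaperones had 10 FL sites on 8 of 90 genes, 6 of them shared, led by coding sites of HSP90AA1 with FL heights of 13 and 10. The ubiquitin path had 12 FL sites on 11 of 298 genes, of which 8 lay wholly in the 3′UTR and 1, that of USP22, was shared. Cell cycle and replication genes had 14 FL sites on 13 of 151 genes, 3 of them shared. CDC25A, the phosphatase that activates cyclin-dependent kinases, had unshared FL sites of 7 and 6 at 480 and 683 nt after the stop codon. The 4 sites on actins and tubulins in each list, on ACTB, ACTG1 and TUBA1C, all lay in coding sequence and all were shared, ACTB by 36 nt only. The middle of each of these FL sites had several exact copies in the genome: 3 for ACTG1, 2 for ACTB, and 4 and 2 for TUBA1C. The place of their reads, and so their sharing, is therefore uncertain. Of 95 histone genes, 2 had an FL site and 1 an RBD site. H4C5 had an unshared FL site of height 11 across the stop codon, and H1-10 an unshared RBD site of height 15. No group was compared with others by a test.

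Of the mRNAs that the study followed up, 7 had a site of this kind. The study called mRNAs with overlapping FL and RBD sites bound. It classed YWHAZ, CTC1, ATAD5 and PPP2R1A as bound mRNAs whose translation efficiency fell on PRRC2B knockdown. ACTB was bound with unchanged efficiency, and PTBP1 and GATA4 were examples of unbound mRNAs. YWHAZ, the signalling adaptor 14-3-3 zeta, had a height of 8 in both lists at 1150 nt after the stop codon in the FL list, just beyond the upper quartile of distances of FL 3′UTR sites. PPP2R1A had the G-rich site described above, which lay in the reference 3′UTR, whereas the study lists its binding site under the coding sequence. PTBP1 was found in the FL list only, and GATA4, a cardiac and endodermal transcription factor, in the RBD list only, with a height of 5. ATAD5, which unloads the replication clamp, had heights of 9 and 4. CTC1, a telomere protein, had 7 and 10 on a serine tRNA gene within its 3′UTR. ACTB had 7 and 6 in coding sequence.

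Some genes held several sites of this label, not all of them in the 3′UTR. More than 1 site lay on 15 genes of the FL list and on 5 of the RBD list. All FL sites of EIF4G2, FARSA, HSP90AA1, RADIL and TUBA1C among these lay in coding sequence. In the RBD list, only ZNF664 had 2 sites wholly in the 3′UTR. Those of HSP90AA1 and TUBA1C lay in coding sequence, those of DKC1 outside the reference exons, and 1 of ARF1 across the stop codon. OS9, a lectin of endoplasmic reticulum quality control, had 3 FL sites, of which those with heights of 8 and 9 lay 115 nt apart in the 3′UTR. MYSM1, a histone H2A deubiquitinase, had overlapping sites of 6 and 7 with starts 59 nt apart. ADD1 had sites of 5 and 5 that were 128 nt apart, and DNAJB6, a co-chaperone, sites of 6 and 5 that were 76 nt apart and overlapped the same RBD site. Of the genes with a member site, 77 had one in both lists, out of 267 FL genes and 168 RBD genes.

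Structural RNA was a minor part of the 3′UTR-labelled sites. An annotated small RNA gene on the same strand, or a tRNA gene, lay under 4 of 271 FL sites (1.48%, interval 0.575 to 3.73) and 8 of 164 RBD sites (4.88%, interval 2.49 to 9.33). Besides TMEM107, RPS2 and CTC1, these included PLCG2 on a 7SK RNA pseudogene in both lists, and, in the RBD list, EIF4A1 and both sites of DKC1 on small nucleolar RNA genes. The middle 25 nt occurred once in the genome for 238 of 271 FL sites (87.8%) and 141 of 164 RBD sites (86.0%), and up to 11 times for PLCG2. Among other shared FL sites named above, it occurred 3 times for RPLP0 and 2 times each for RPL18, EEF1G, CDKN2A and ATAD5. For sites with several copies, the place of the reads is uncertain.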

How the data were processed

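FLAG-tagged PRRC2B (FL) and fragment P2 (RBD) were profiled by PAR-CLIP-seq. Per the labels and methods, the authors demultiplexed with bcl2fastq 2.19.0, trimmed with cutadapt, removed reads of identical sequence, mapped to hg38 with Bowtie (the labels give version 1.2.1.1) and used the CLIP Tool Kit to call peaks. The deposited signal is the peak height, in overlapping deduplicated reads, not scaled for depth. The authors' p-value ranged up to 0.0499 among the sites, and whether it was corrected is not given in the sources used here. The deposited BED files were checked against the tables and not used further. Members, gene lists, motifs and windows were chosen with earlier results of these data known. Named genes were those the study followed up, the 15 tallest sites of each list, the 25 tallest shared sites, genes with several sites, the tallest of each gene group and the pairs nearest the sharing limit. HIPK2, KHDRBS1, LMNB2, MLLT1, SLC3A2, RPL7L1, the genes with small RNA genes under their sites and the second set of sequences were chosen after their values were seen. Sites were 100 nt wide, converted to 1-based coordinates and placed on GENCODE release 44 transcripts; distances run from the stop codon to the middle of the site. Shares have 95% Wilson intervals. Functions were tested on made-up data with known answers. Python 3.11.15, pandas 2.3.3, numpy 2.4.6, pysam 0.24.0, scipy 1.17.1 and matplotlib 3.10.9 were used. Alternatives are given with the closing results. Some single-gene results are not reported here.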

Additional observations from a re-analysis of the deposited data

How the results depend on the processing

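No paired analysis was possible because the replicates were merged before the lists were made, and no replicate could be left out for the same reason. Of 78 alternatives for 12 results, 56 gave a value within the 95% interval of the reported one and 22 lay outside it. An overlap of at least 90 nt lowered the shared share of FL sites from 28.8% to 23.6%. With heights of at least 10 in both lists, the shared share of RBD sites was 53.8%. Restriction to the label 3′UTR alone put the middle in the reference 3′UTR in 100% of placed FL and RBD sites (64.8% and 59.9% for all labels), left 7.48% and 8.64% within 100 nt of the stop codon, and raised C and T in the middle 41 nt to 60.8% and 64.1% from 56.3% and 58.1%. Heights of at least 10 gave 50.0% and 47.8% in the 3′UTR, 27.5% of FL sites within 100 nt of the stop codon, C and T of 51.8% and 51.4%, and 4.88% and 15.4% on small RNA genes. A distance of 50 nt gave 11.9% and 14.6% near the stop codon, and 200 nt gave 30.7% and 31.8%. C and T were 59.0% in the middle 21 nt of FL sites, and 53.7% and 53.9% over whole FL and RBD sites. Depth was unknown, so the lists do not tell whether an unshared site had no reads in the other list or too few to be called: 193 FL and 89 RBD sites were unshared, with median heights of 6 and 5. Sites of the cells' own PRRC2B were not measured here.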
